A study of Rattus norvegicus with 6 samples.

Results

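A set of 3 noncoding transcripts from 3 loci held between 4.66 and 57.9% of all FPKM in a table of 2455 rat lncRNA transcripts at 1646 loci. They are TCONS_00015674 (locus XLOC_009344), TCONS_00032703 (XLOC_019504) and TCONS_00048236 (XLOC_029767). Each locus had 1 transcript in the table. The loci were chosen by their FPKM, that is by their share of total FPKM and by how their 2 FPKM columns per tissue compare, so the levels, shares and column gaps are given as a description and carry no test. The table came from RNA sequencing of liver, cortex, outer medulla (a zone of the kidney), left ventricle, adrenal gland and hypothalamus of male Brown Norway (BN) rats, an inbred strain, at 6 weeks of age. All animals were of that strain and sex, no treatment is given in the labels, and there was 1 labelled sample per tissue. Which organ the cortex was taken from is not said in its label. The deposited table had 2 FPKM columns per tissue, called column 1 and column 2 here from the digit that opens their codes. The labels do not tie them to separate animals, so they give no replicate error for a tissue. The code of the hypothalamus columns, B, was matched by elimination, and each hypothalamus value rests on that match.

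Long noncoding RNAs are transcripts with no recognised protein product, and most of those catalogued by sequencing are present at low levels and in few tissues. A few noncoding RNAs are made in very large amounts, and these can fill a large part of a library. FPKM is the number of sequenced fragments divided by the usable length of the transcript and by the total of the library, so it measures abundance per unit of length. A short transcript therefore reaches a high FPKM with few fragments, and the estimate for a transcript close to the length of a fragment depends more on the fragment length that was assumed. The authors' class code o marks an exon overlap with a reference transcript that is neither a match nor a shared splice junction. It was given to TCONS_00015674 and TCONS_00032703 and to 226 of the 2455 transcripts in all. Because their exons overlap those of reference transcripts, the values of TCONS_00015674 and TCONS_00032703 may include reads of the genes they overlap. How strand was treated in counting is not stated in the labels. TCONS_00048236 had no reference gene, like 1722 of the transcripts. No gene symbol was paired with any of the 3 loci, and 0 of their reference identifiers matched the table of reference genes at hand, so no function can be given for them.

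TCONS_00015674 is 267 bases long and lies at chromosome 10, 58888597 to 58890286 (rn5), a locus of 1690 bases that overlaps ENSRNOG00000047167. TCONS_00032703 is 653 bases long and lies at chromosome 14, 46814997 to 46864150, a locus of 49154 bases that overlaps ENSRNOG00000049138. TCONS_00048236 is 226 bases long and lies at chromosome 18, 28103994 to 28139181, a locus of 35188 bases. Against a median length of 1758 bases over the table, only 2.0 and 1.26% of transcripts were shorter than TCONS_00015674 and TCONS_00048236. For TCONS_00032703 this share was 16.7%, so it is short only in comparison with most of the table.

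The steps between low FPKM values implied a depth of 3870000 fragments in liver column 2 and of 10200000 to 31900000 in the other 11 columns. The liver columns stood apart. Among transcripts with a mean FPKM of at least 1, 15.0% of 473 were 10-fold or more apart between the liver columns on the FPKM + 0.1 scale. The share was 2.75% in cortex, 2.31% in outer medulla, 4.08% in left ventricle, 3.22% in adrenal gland and 3.29% in hypothalamus. A set of 129 transcripts high in adrenal gland reached, on the median, 12.1% of their adrenal level in hypothalamus column 1 and 5.5% in column 2. The same rule for hypothalamus, with no condition on adrenal gland, gave 91 transcripts. Of these 91, 17 and 16 reached at least 50% of their hypothalamus level in the adrenal gland columns. The median of the 91 relative to hypothalamus was 4.02% in column 1 of adrenal gland and 21.1% in its column 2. These shares therefore differed between the columns of a tissue, and they were not set beside those in another tissue.

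TCONS_00015674 was abundant everywhere. It was above 0 in all 12 columns and ranked among the top 3 of all transcripts in every one of them. In column 1 and column 2, its FPKM was 1587 and 555 in liver, 793 and 629.6 in left ventricle, 519 and 731 in hypothalamus, 609 and 500.3 in cortex, 293 and 219.6 in adrenal gland, and 153 and 148 in outer medulla. The highest column was 10.8 times the lowest. In that order of means, liver, left ventricle and hypothalamus each overlapped the next tissue, so the order of liver, left ventricle, hypothalamus and cortex is not resolved by these columns. The columns of cortex lay above those of adrenal gland, with means of 554 and 256 FPKM, a ratio of 2.16. Those of adrenal gland lay above those of outer medulla, with means of 256 and 150.3 FPKM, a ratio of 1.70. When columns were rescaled to the same median, the hypothalamus mean became 1159 FPKM and passed that of liver at 1015, while cortex (491), adrenal gland (244) and outer medulla (121) kept their order.

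**Figure D1:**
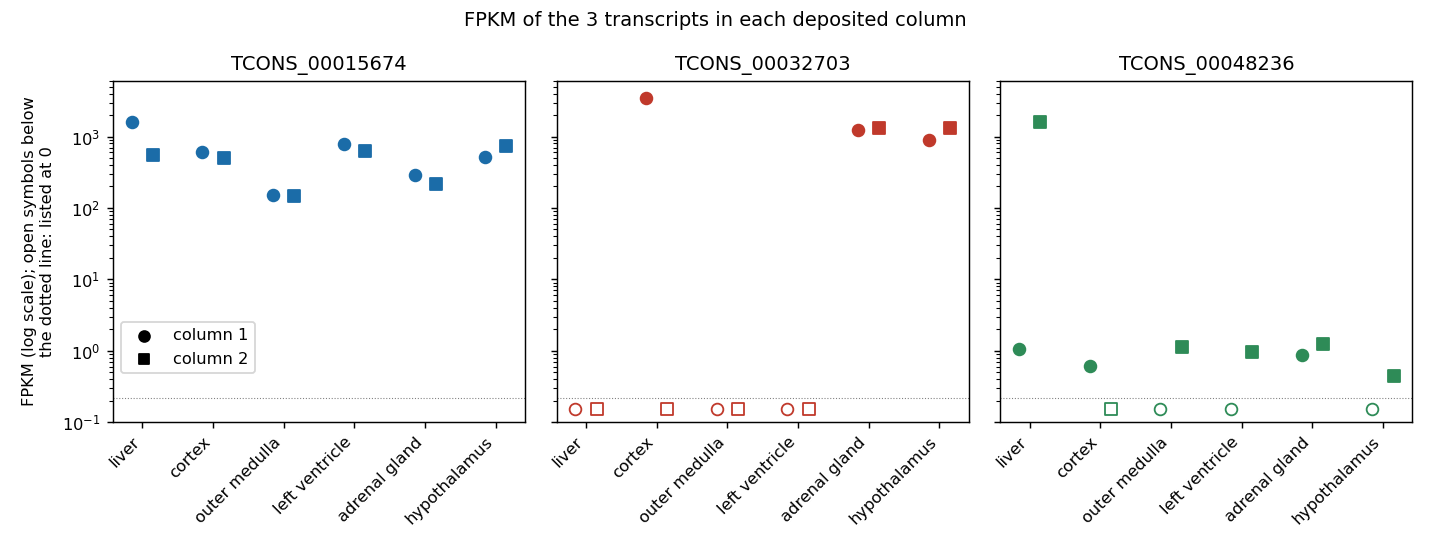
FPKM on a log axis of TCONS_00015674, TCONS_00032703 and TCONS_00048236 in each deposited column, with column 1 as circles and column 2 as squares. Open symbols under the dotted line are values listed at 0. TCONS_00015674 is above 147 FPKM in all 12 columns, TCONS_00032703 is either at 891 FPKM or more or at 0, and TCONS_00048236 is high in liver column 2 alone.

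The fragments behind TCONS_00015674 were few for such a level. With an assumed mean fragment of 140 bases, 127 bases of its length were usable and its values corresponded to between 273 fragments in liver column 2 and 2962 in hypothalamus column 2. At its highest, in liver column 1, it took 0.0202% of the library total to which FPKM were scaled. The exact 95% Poisson intervals of the 2 columns overlapped only in outer medulla, at 137 to 170.3 and 132 to 164 FPKM. In each of the other 5 tissues the intervals did not overlap, and the columns were 1.22 to 2.86 times apart. These intervals rest on the estimated depth and the assumed fragment length, and they are no test. They cover counting error only, and reads amplified by PCR are not independent molecules.

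TCONS_00015674 was also set against TCONS_00012467, the most abundant transcript outside the 3 loci (11142 bases), because a ratio within a column does not depend on the scaling of that column. In outer medulla TCONS_00015674 stood at 18.4 and 17.6% of TCONS_00012467, and in adrenal gland at 23.8 and 24.0%. In left ventricle the ratio was 71.3 and 66.1%, and in cortex 71.6 and 64.6%. In hypothalamus it was 147 and 262%, and in liver 261 and 106%. By this ratio the columns of outer medulla and adrenal gland agreed closely, cortex and left ventricle lay together, and only in liver and hypothalamus did TCONS_00015674 exceed TCONS_00012467. The ratio also varies with the level of TCONS_00012467 itself. That level was 352 and 279 FPKM in hypothalamus, the lowest of its tissues, and 1231 and 916 FPKM in adrenal gland.

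TCONS_00032703 was either the most abundant transcript of a column or listed at 0. It had 1256 and 1302 FPKM in adrenal gland and 891 and 1335 FPKM in hypothalamus. In cortex it had 3416 FPKM in column 1, the highest value of the table, and was listed at 0 in column 2. Liver, outer medulla and left ventricle had a listed 0 in each column. It ranked first in all 5 columns in which it was above 0, and no column held an intermediate value. The adrenal gland columns lay within the range of the hypothalamus columns, so the order of these tissues is not resolved, and after rescaling to the same median the hypothalamus mean was 2065 FPKM against 1238 FPKM in adrenal gland, with no overlap of the columns.

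The listed zeros of TCONS_00032703 faced large numbers of fragments. With 513 usable bases, its values corresponded to 8712 and 11711 fragments in adrenal gland, 12567 and 21845 in hypothalamus, and 30245 in cortex column 1. In cortex column 1 this was 0.175% of the library total, against 0.0644 and 0.0668% in adrenal gland. A count of 0, which allows up to 3 fragments, would limit its FPKM to between 0.318 in outer medulla column 2 and 1.51 in liver column 2 across the 7 columns at 0. The limit would be 0.393 in cortex column 2. Where a file holds no counts, an exact 0 can come from a failed estimate, so these 7 values are given only as listed at 0. The column gaps, totals and correlations below that involve TCONS_00032703 take these zeros as listed and carry the same limit.

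A value this high facing a listed 0 in the other column of the same tissue occurred once in the table. Over all 6 tissues, the next highest value facing a 0 was 26.2 FPKM, for TCONS_00113045 in liver column 1. In cortex 487 transcripts were above 0 in 1 column and at 0 in the other, and the median of those values was 0.0948 FPKM. TCONS_00032703 was the only one of the 487 at 10 FPKM or more. In liver, 5 transcripts at 10 FPKM or more faced a 0 (TCONS_00113045, TCONS_00021769, TCONS_00037357, TCONS_00029307 and TCONS_00013374, named after their values were seen), and in the other 4 tissues there were none. TCONS_00113045 is only 169 bases long, so its value rests on few fragments. TCONS_00021769 (24.0 FPKM) and TCONS_00037357 (19.3 FPKM) are 6106 and 3605 bases long.

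Because TCONS_00032703 was high in adrenal gland, hypothalamus and cortex column 1, other transcripts of those tissues were looked up in the cortex columns. There were 20 transcripts outside the 3 loci that stood at FPKM 1 or more in both adrenal gland and hypothalamus and at least 5-fold above liver, outer medulla and left ventricle in each. Of these 20, none reached 50% of its mean level in either cortex column, and the median was 0% in cortex column 1 and 0% in cortex column 2. TCONS_00032703 itself had 3416 FPKM in cortex column 1. The smaller median shares of transcripts high in the other tissue were in adrenal gland column 1 and hypothalamus column 2. There TCONS_00032703 had 1256 and 1335 FPKM. The cause of its level in any of these columns was not tested.

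TCONS_00048236 was high in a single column. It had 1575 FPKM in liver column 2, where it ranked first, and 1.05 FPKM in liver column 1. Elsewhere it had 0.875 and 1.24 FPKM in adrenal gland, and it was above 0 only in column 2 of outer medulla (1.12), left ventricle (0.953) and hypothalamus (0.444) and only in column 1 of cortex (0.609). Its rank in the 7 low columns ran from 291 to 714. With 86 usable bases, 1 fragment was worth 0.365 to 3.0 FPKM across the columns in which it was above 0. The low values therefore corresponded to between 0.833 and 1.88 fragments, that is to 1 or 2 fragments each, and the other 4 columns were listed at 0. No difference between the other 5 tissues was detectable at this depth.

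In liver column 2 the value of TCONS_00048236 corresponded to 525 fragments (exact 95% Poisson interval 481 to 572), against 1.1 fragments in liver column 1 (0.0253 to 5.57). The liver mean of 788 FPKM is thus the value of column 2 shared over both columns. Other transcripts differed in the same way between the liver columns. Of 473 transcripts, 7 (TCONS_00048236 among them) were at least 100-fold higher in column 2 and 4, all of them among the transcripts facing a 0 above, were at least 100-fold higher in column 1 on the FPKM + 0.1 scale. TCONS_00094226 had 217 FPKM in column 2 and 0.624 in column 1, and TCONS_00013762, named after its values were seen, had 320 and 1.11 in the same order. In outer medulla, adrenal gland and hypothalamus no transcript with a mean FPKM of at least 1 was 100-fold apart, in left ventricle TCONS_00060851 was, at 12.8 FPKM in column 1 and 0.00264 in column 2, and in cortex TCONS_00032703 was the only one.

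**Figure D2:**
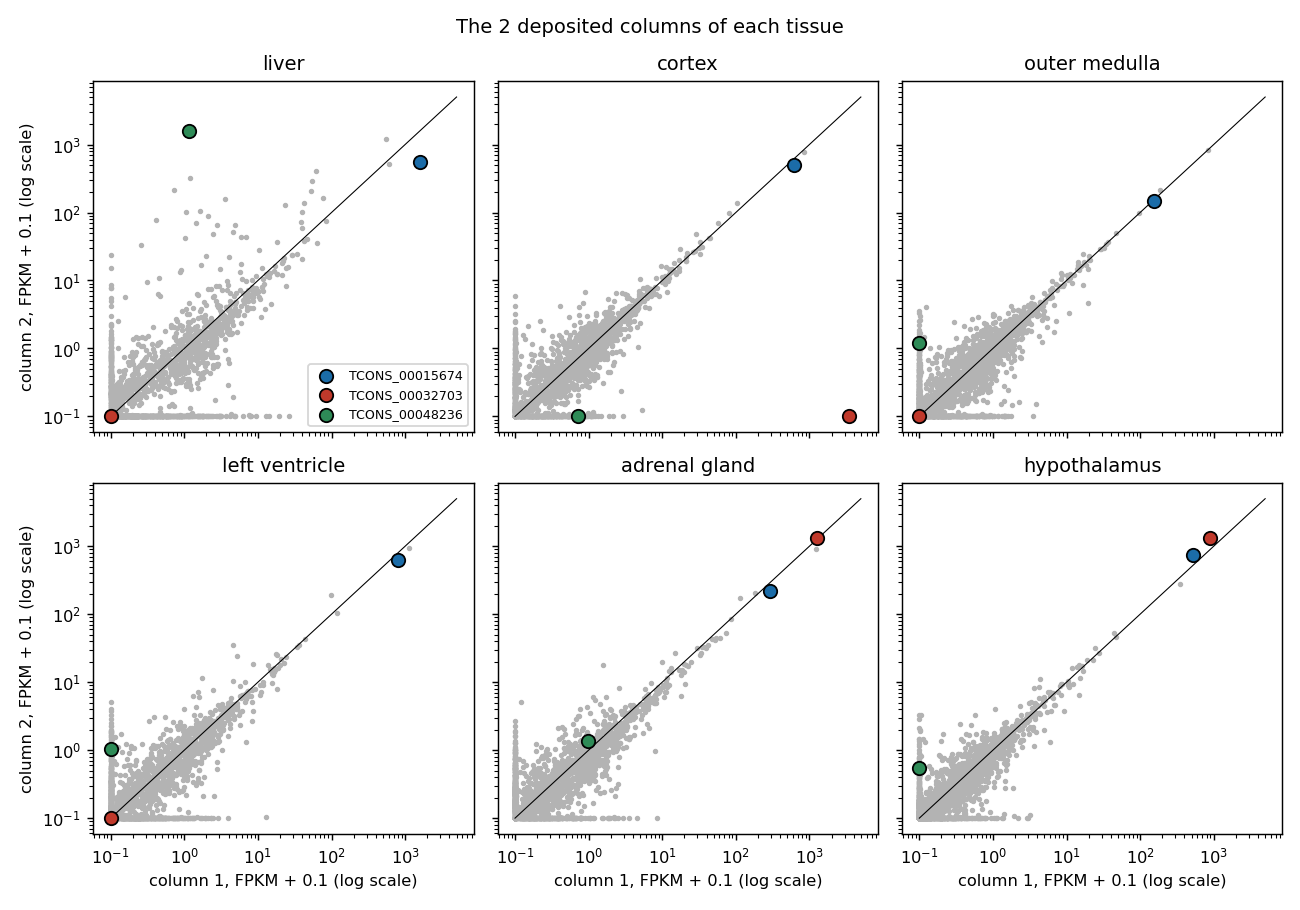
Column 2 against column 1 of each tissue as FPKM + 0.1 on log axes, with the 3 transcripts coloured, all other transcripts in grey and the line of equality in black. TCONS_00015674 lies near the line in all tissues but liver. TCONS_00048236 (1.05 and 1575 FPKM) lies far off it in liver and TCONS_00032703 (3416 FPKM and 0) far off it in cortex.

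Among transcripts with a mean FPKM of at least 1 in a tissue, the gap between the 2 columns of TCONS_00015674 was an ordinary one. Its columns differed by -1.52 on the log2 scale in liver (column 2 minus column 1), and 73.8% of 473 transcripts had closer columns. In the other 5 tissues the difference was between -0.41 and 0.50, and the share of transcripts with closer columns ran from 15.7% in outer medulla to 68.7% in hypothalamus. TCONS_00032703 had a difference of 0.05 in adrenal gland, where 4.7% of 404 transcripts had closer columns, and of 0.58 in hypothalamus, where 73.3% were closer. The adrenal share depends on the minimum: it was 2.63% among transcripts with a mean FPKM of at least 10 and 28.5% with no minimum, which counts transcripts at 0 in both columns as closer. For TCONS_00015674 in outer medulla the share was likewise 36.8% at a minimum of 10 and 30.3% with none. At a minimum of 10 its share was 54.7% in liver, 63.3% in left ventricle, 68.4% in cortex, 68.4% in adrenal gland and 83.3% in hypothalamus. Among these more abundant transcripts its columns were thus further apart than most in every tissue but outer medulla. In cortex the columns of TCONS_00032703 lay further apart than those of any of the other transcripts compared. The same held for TCONS_00048236 in liver. Of the transcripts of these loci with a mean FPKM of at least 1, 1 of 2 in liver and 1 of 2 in cortex had columns 10-fold or more apart, beside 15.0% and 2.75% of all transcripts compared. In the other 4 tissues none did.

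Together the 3 transcripts held 53.1% of the mean total FPKM in hypothalamus and 41.6% in cortex. The share was 29.9% in adrenal gland, 25.6% in liver, 19.4% in left ventricle and 4.76% in outer medulla. By column the share was 47.4 and 57.9% in hypothalamus, 28.6 and 31.3% in adrenal gland, 28.7 and 23.7% in liver, 21.0 and 17.8% in left ventricle, and 4.87 and 4.66% in outer medulla. In cortex it was 56.2% in column 1 and 13.5% in column 2. Hypothalamus lay above and outer medulla below the other tissues in both columns, apart from cortex, whose columns lay on either side of liver, left ventricle and adrenal gland. Adrenal gland and liver overlapped. A transcript of the 3 loci ranked first in 7 of the 12 columns, and TCONS_00012467 ranked first in the remaining 5.

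Which transcript made up the share differed between tissues. In left ventricle and outer medulla it was nearly all TCONS_00015674, with 21.0 and 17.8% of total FPKM in left ventricle and 4.87 and 4.63% in outer medulla. In hypothalamus TCONS_00032703 held 30.0 and 37.4% and TCONS_00015674 17.4 and 20.5%. In adrenal gland TCONS_00032703 held 23.2 and 26.8% and TCONS_00015674 5.4 and 4.52%. In cortex column 1 TCONS_00032703 held 47.7%, the largest share of any 1 of the 3 transcripts in a column, and TCONS_00015674 held 8.50%. In cortex column 2 the share of 13.5% was that of TCONS_00015674 alone. The liver columns had similar shares from different transcripts. TCONS_00015674 held 28.7% in liver column 1 and 6.17% in column 2, and TCONS_00048236 held 0.019% in column 1 and 17.5% in column 2.

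**Figure D3:**
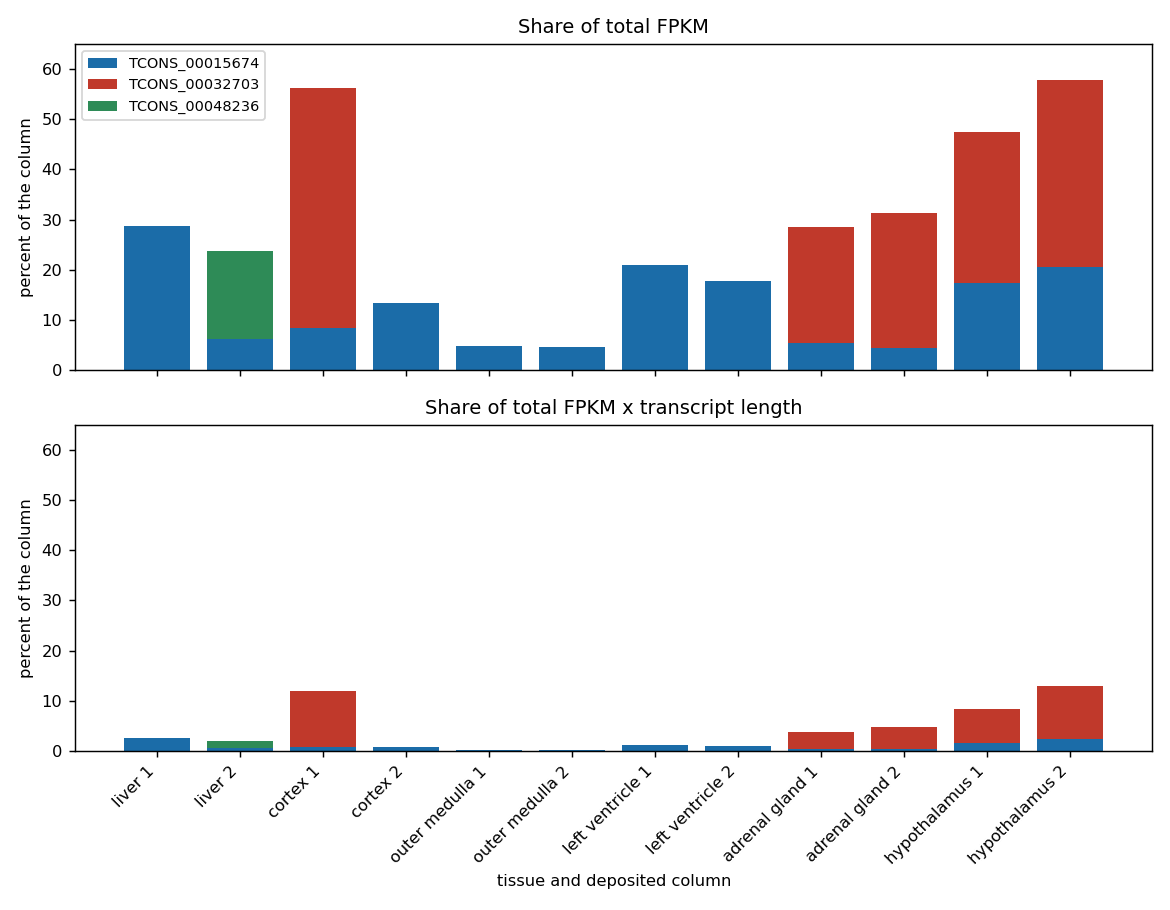
Share of each deposited column held by the 3 transcripts, as percent of total FPKM (top) and as percent of the total of FPKM times transcript length (bottom), as stacked bars on the same axis. The combined share reaches 57.9% of total FPKM in hypothalamus column 2 and 12.9% after weighting by length.

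Weighting by length, which brings the values closer to fragments than to molecules, lowered the share of the 3 transcripts in every column. In liver they held 2.62 and 2.06% of FPKM times length, in left ventricle 1.10 and 0.922%, and in outer medulla 0.236 and 0.224%. In adrenal gland they held 3.86 and 4.75%, in hypothalamus 8.25 and 12.9%, and in cortex 11.99% in column 1 and 0.777% in column 2. The largest single weighted share, 11.2%, was that of TCONS_00032703 in cortex column 1, and TCONS_00015674 did not exceed 2.62% in any column.

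The other short transcripts of the table are set here beside these loci, which were chosen for their high FPKM. There were 70 transcripts under 300 bases, TCONS_00015674 and TCONS_00048236 among them. The other 68 had a median highest tissue mean of 2.91 FPKM, and 1 of them, TCONS_00081178, reached a mean of 100 FPKM in a tissue, at 143 FPKM. The median was 1.23 FPKM for the 660 other transcripts of 300 bases or more and under 1000 and 0.946 FPKM for the 1724 of 1000 bases or more. The shorter classes thus had the higher medians. The 68 other short transcripts held between 1.08 and 9.74% of total FPKM across the columns.

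**Figure D4:**
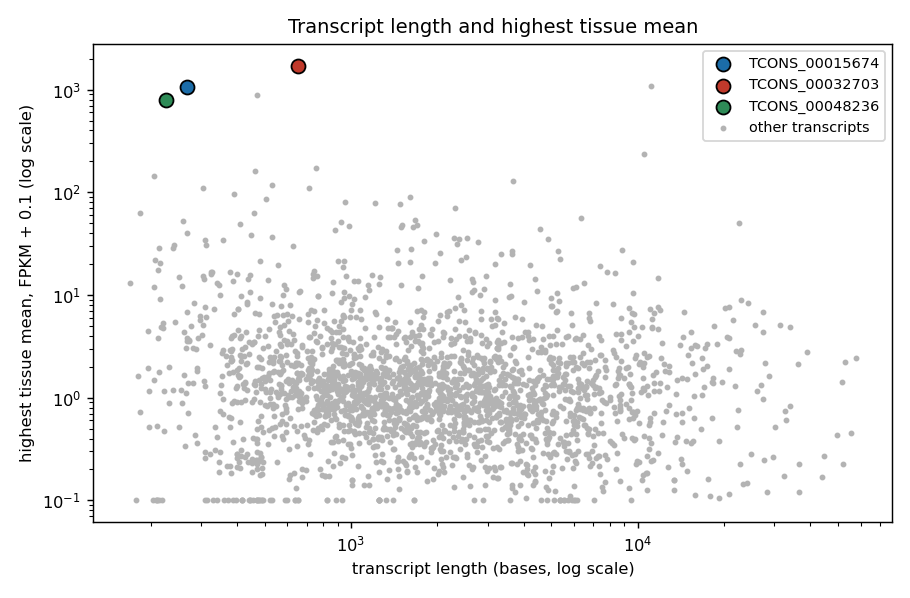
Highest tissue mean of each transcript, as FPKM + 0.1 on a log axis, against its length in bases on a log axis, with the 3 transcripts coloured and the other transcripts in grey. TCONS_00015674, TCONS_00032703 and TCONS_00048236 have highest tissue means of 1071, 1708 and 788 FPKM, while the 68 other transcripts under 300 bases have a median of 2.91 FPKM.

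The 5 shortest transcripts of the table were 169 to 184 bases long and lay far lower. TCONS_00113045 reached 26.2 FPKM and was at 0 in 5 columns, and TCONS_00096639 reached 72.7 FPKM in adrenal gland. TCONS_00109422 and TCONS_00003519 reached 3.08 and 1.24 FPKM, and TCONS_00020574 was listed at 0 in all 12 columns. In all, 13 transcripts reached a mean of 100 FPKM in a tissue, and 8 of these 13 were listed at 0 in at least 1 column, among them TCONS_00032703 with 7 columns and TCONS_00048236 with 4. TCONS_00015674 was one of the 5 with no 0.

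On the FPKM scale, the likeness of the cortex columns differed greatly with and without the 3 transcripts. Total FPKM was 7161 in cortex column 1 and 3709 in column 2, a ratio of 1.93. Without the 3 transcripts the totals were 3135 and 3208, a ratio of 1.02. Pearson's r between the cortex columns across transcripts was 0.294 over all 2455 and 0.997 without the 3. Leaving out TCONS_00032703 alone gave a ratio of 1.01 and an r of 0.996. Spearman's rho, which uses ranks, was 0.781 with and 0.783 without the 3 transcripts. These correlations run across transcripts, which are no independent replicates, and are a description without a p.

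In liver the totals were 5535 in column 1 and 9000 in column 2 over all transcripts, and 3947 and 6870 without the 3. The ratio of the totals was 1.63 with them and 1.74 without them. Pearson's r between the liver columns was 0.479 with and 0.828 without the 3 transcripts, and 0.664 without TCONS_00048236 alone. In the other 4 tissues r was between 0.986 and 0.999 with the 3 transcripts and between 0.993 and 0.999 without them. The ratio of the totals without them was 1.02 in outer medulla, 1.03 in left ventricle, 1.04 in hypothalamus and 1.16 in adrenal gland, against 1.02, 1.07, 1.20 and 1.12 with them. In hypothalamus the totals without the 3 transcripts were 1564 and 1502, the lowest of the table.

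**Figure D5:**
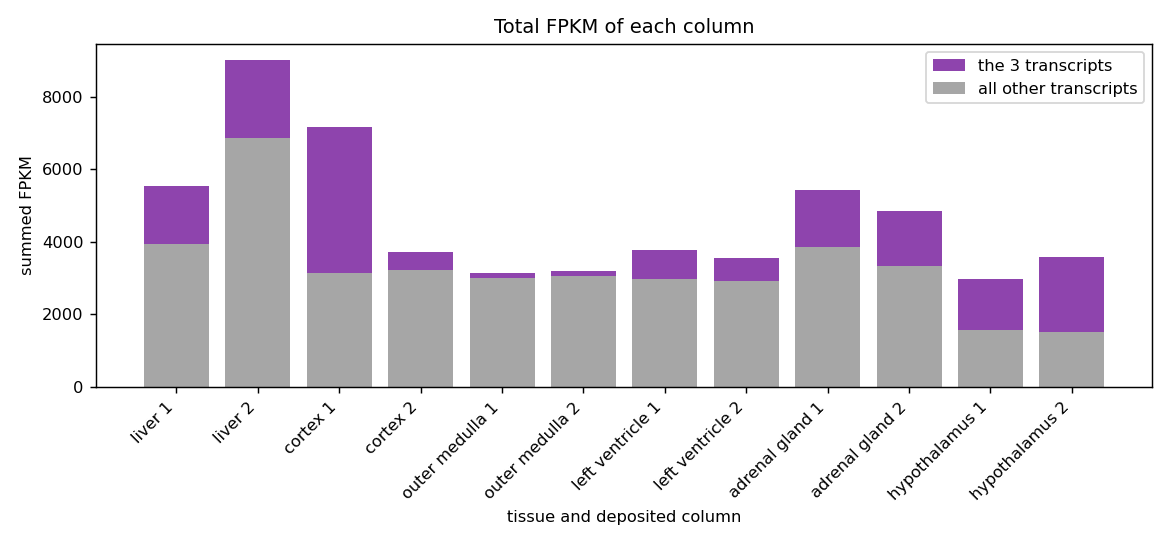
Summed FPKM of each deposited column, split into the 3 transcripts (purple) and all other transcripts (grey), as stacked bars. Without the 3 transcripts the cortex columns sum to 3135 and 3208 FPKM, against 7161 and 3709 FPKM with them.

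The share of the 10 most abundant transcripts also differed with and without these loci. It was 73.6 and 48.0% of total FPKM in the cortex columns, and 41.8 and 40.8% when the 3 transcripts were left out and the next ones moved up. In hypothalamus it was 66.0 and 71.8% with them and 37.3 and 35.3% without them. In outer medulla it was 46.9 and 47.1% with them and 44.9 and 45.3% without them.

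The transcripts most alike in pattern were sought with Pearson's r on log2(FPKM + 0.1) over the 12 columns among 1268 transcripts of other loci with a mean FPKM of at least 1 in some tissue. The columns share tissues and libraries, so r is a description and carries no p. For TCONS_00015674 the closest were TCONS_00072185, which is assigned to the chaperonin-like gene Mkks (r 0.71, Spearman's rho 0.71, highest value 17.9 FPKM), TCONS_00097546 (r 0.68, rho 0.72) and TCONS_00078059 (r 0.66, rho 0.60). None was a close match, and all 3 were far less abundant. For TCONS_00032703 they were TCONS_00090695, assigned to rno-mir-679 (r 0.86, rho 0.82), TCONS_00114420 (r 0.83, rho 0.83) and TCONS_00090724, assigned to rno-mir-6331 (r 0.81, rho 0.61). TCONS_00090695 and TCONS_00090724 were listed with the same interval, chromosome 6, 143006931 to 143062780, so they cannot be taken as independent matches. Without cortex column 1 the r of TCONS_00090695 and TCONS_00090724 was 0.99 each, and both had at most 0.0899 FPKM in that column. That r rests on the split between the adrenal gland and hypothalamus columns and the remaining columns, where TCONS_00032703 was listed at 0. TCONS_00090695 and TCONS_00090724 reached at most 1.30 and 1.14 FPKM. For TCONS_00048236 the closest were TCONS_00094226 (r 0.94, rho 0.82), TCONS_00078268, assigned to Mir29b-1 (r 0.94, rho 0.48), and TCONS_00026129 (r 0.91, rho 0.48). These rest on liver column 2, without which r was 0.65, 0.57 and 0.29.

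The nearest listed loci were mostly far away and of low level. The nearest listed loci of TCONS_00015674 were 818 and 1983 kb away and reached at most 0.505 FPKM. Those of TCONS_00032703 were 2299 and 4467 kb away and reached at most 0.284 FPKM. For TCONS_00048236 the nearest was TCONS_00049749, at 199 kb, with at most 2.65 FPKM, and TCONS_00049656, at 2175 kb on the other side, reached 72.8 FPKM. Of the names of structural and other abundant noncoding RNAs looked for in the table, such as 7SK, RNase P, RNase MRP, small nucleolar RNAs, Malat1 and Neat1, 1 was found: Snhg11, a small nucleolar RNA host transcript, at up to 8.22 FPKM. This search read names only, and 1722 transcripts had no reference gene. It could not find such an RNA among unnamed transcripts, TCONS_00048236 and TCONS_00012467 among them. Nor could it find one at TCONS_00015674 and TCONS_00032703, whose only name is an Ensembl identifier.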

How the data were processed

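FPKM of lncRNA transcripts were analysed for 1 labelled sample of each of 6 rat tissues. The deposited table gave FPKM, scaled by the authors, in 12 columns, with a transcript length in bases. The submitters' processing notes name bcl2fastq 2.15.0 and the genome build rn5. TRIzol total RNA and a TruSeq stranded kit were used, per the labels' protocols. Per the file headers, the layout is that of Cufflinks tracking output. Aligner, FPKM program, annotation, strand setting and lncRNA criteria are not stated there. Of 2458 transcripts, 3 without values were left out. Coordinates are the table's own locus intervals, whose counting origin is not stated.

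The 3 loci, the lists and the measures were chosen with earlier results of these data known, so no test was run. Shares were taken of the summed FPKM of all transcripts. Column gaps used log2(FPKM + 0.1), which shrinks gaps of low transcripts. Depth was estimated from the spacing of low FPKM in single-transcript loci of more than 500 bases, assuming fragments of 140 bases on average. At the chosen depth, 83.1 to 90.9% of those FPKM, by column, were whole fragment numbers to within 0.15. Implied fragments of a transcript are FPKM times depth times its length less 140 bases. By a written rule the text names all rows of the loci, the 3 transcripts most alike in pattern to each, the 3 most abundant per tissue, the 5 shortest, the nearest loci, values of 100 or more facing a 0, and structural RNAs. Of those most abundant per tissue, TCONS_00012465 (20.98 to 415 FPKM over all columns) and TCONS_00058886 (0 to 1217 FPKM) are not described further. The work used Matplotlib 3.10.9, SciPy 1.17.1, NumPy 2.4.6, pandas 2.3.3 and Python 3.11.15. Alternatives were other denominators, length weighting, rescaled columns, pseudocounts of 0.01 and 1, other FPKM minimums, other measures of likeness and each column left out. Mean fragments of 120 and 160 bases, and likeness without the highest column, were chosen after seeing the data.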

Additional observations from a re-analysis of the deposited data

How the results depend on the processing

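No paired analysis was possible because each tissue had 1 labelled sample and no test was run. With FPKM weighted by length, the share of the 3 loci was 2.28% in liver, 6.80% in cortex, 10.5% in hypothalamus, 1.01% in left ventricle, 0.230% in outer medulla and 4.26% in adrenal gland. With the most abundant other transcript left out of the total it was 27.1% in left ventricle, 37.8% in adrenal gland and 6.47% in outer medulla, and over transcripts with a mean FPKM of at least 1 it was 5.11% in outer medulla. The other shares under these settings moved by less than 1 SD of the 2 columns. That SD is wide where the columns disagree, so a small move by it does not show stability. In cortex, with 56.2 and 13.5% by column, the share went from 41.6 to 49.0% without the most abundant other transcript and stayed within it. With columns rescaled to the same median by factors of 0.750 to 1.89, TCONS_00015674 had 120.6 FPKM in outer medulla and 1159 in hypothalamus, and TCONS_00032703 had 1238 in adrenal gland and 2065 in hypothalamus. Taking the most abundant transcript of each locus changed nothing, since each locus has 1.

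With pseudocounts of 0.01 and 1, the log2 gap of TCONS_00032703 in cortex was -18.4 and -11.7, against -15.1 with 0.1, and the size of that gap is set by the pseudocount. For TCONS_00048236 the gaps were -5.95 and -0.69 in cortex, 5.51 and 0.53 in hypothalamus, 6.59 and 0.97 in left ventricle, and 6.82 and 1.08 in outer medulla, each resting on 1 or 2 fragments. The other 10 gaps moved by less than 1 SD over transcripts, and no gap changed sign. Set beside transcripts with a mean FPKM of at least 10, the share with closer columns than TCONS_00015674 was 36.8 to 83.3% over tissues, and with no minimum it was 30.3 to 80.3%. Of the 9 transcripts most alike in pattern, 0 stayed among the 3 closest of their locus on tissue means, 2 with Spearman's rho and 3 without the highest column of each locus. The cause was not tested. A mean fragment of 120 or 160 bases changed implied fragments by a factor of 0.780 to 1.22, most for the 226-base transcript. The depth of liver column 2 limits what a low value there can show.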
